A study of Mus musculus with 29 samples.

Results

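The Toll-like receptor genes Tlr1, Tlr2, Tlr3, Tlr4, Tlr6, Tlr7, Tlr8, Tlr9 and Tlr13 and the co-receptor gene Cd14 were followed in mouse cortex after photothrombotic stroke. They were taken by gene symbol, through the Ensembl identifiers of the count files, and make up 10 of the 25746 genes counted. All 10 passed the filter on low counts and were among the 17031 genes tested. Stroke was induced by light activation of a dye in the vessels of the right sensorimotor cortex, and bulk RNA of the stroked cortical tissue was sequenced 21 days later. The 29 samples came from mice of 3 months of age and fell into 8 groups. WT mice (C57BL/6J) were non-stroked (n = 4) or stroked (n = 4). Rag2-/- mice, which lack a recombinase needed to assemble B and T cell receptors, were non-stroked (n = 3) or stroked (n = 3). NSG mice combine the NOD strain background with the Prkdc scid mutation and loss of Il2rg, lack B, T and natural killer cells, and were non-stroked (n = 4) or stroked (n = 3). The remaining samples were stroked WT mice given the calcineurin inhibitor tacrolimus from a subcutaneous pump, started on day 0 (WT-Tacr acute, labelled WT_IM, n = 3) or on day 7 (WT-Tacr delayed, labelled WT_IM_del, n = 5). No non-stroked mouse given tacrolimus was analysed here, so both tacrolimus groups were compared with the same 4 non-stroked WT samples as the stroked WT group. The sources differ on whether control tissue came from unoperated mice or from the hemisphere opposite the lesion, and the neutral word non-stroked is used for them.

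Toll-like receptors are membrane proteins that sense conserved microbial molecules and some molecules released by damaged cells. Tlr1, Tlr2, Tlr4 and Tlr6 act at the cell surface, where Tlr2 pairs with Tlr1 or Tlr6 to bind lipopeptides and Tlr4 binds lipopolysaccharide that Cd14 hands over to it. Tlr3, Tlr7, Tlr8, Tlr9 and Tlr13 sense nucleic acids inside endosomes. All but Tlr3 signal through the adaptor Myd88, Tlr3 signals through Ticam1, and Tlr4 uses both. In the brain most of these genes are known chiefly from microglia and other macrophages, while Tlr3 is also found in astrocytes and neurons.

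The members lie on chromosomes 3 (Tlr2), 4 (Tlr4), 5 (Tlr1 and Tlr6), 8 (Tlr3), 9 (Tlr9), X (Tlr7, Tlr8 and Tlr13) and 18 (Cd14) of GRCm38. Tlr1 (chr5:64924679-64933563) and Tlr6 (chr5:64952031-64960097) are neighbours on the minus strand, and Tlr8 (chrX:167242696-167264329) and Tlr7 (chrX:167304929-167330558) form a second pair of neighbours. Only Tlr3 overlaps another annotated gene, the opposite-strand Gm45542, which the files do not count. The counting strand is not given in the sources used here, so reads of these overlapping genes cannot be told apart. Tlr1 and Tlr6 are similar in sequence: 7.89% of the 100-base stretches of Tlr1 transcripts and 7.09% of those of Tlr6 also occur in the other gene, and reads from these stretches could have been split between them. Tlr3 shared such stretches with Gm45542, and the remaining members shared none of this length with any other gene. With stretches of 50 bases the shared part was larger, at 15.4% for Tlr1 and 12.3% for Tlr6, each other among the genes that shared them. At that length 0.216% of the Tlr4 stretches were shared as well.

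Promoter sequence (RefSeq, GRCm38.p6) was found for Tlr1, Tlr2, Tlr3, Tlr6, Tlr8, Tlr9 and Tlr13. Tlr4, Tlr7 and Cd14 had no entry used here. The 250 bases upstream of each start were searched on both strands for the core motif of the myeloid factor PU.1 (GAGGAA), the NF-kB consensus and the core of the interferon-stimulated response element (ISRE, GAAANNGAAA). Of all 32851 RefSeq windows of this length, 23.3% held the PU.1 core, 7.25% the NF-kB consensus and 2.98% the ISRE core. The windows of 5 members are printed 5′ to 3′ with matches in capitals: Tlr2 and Tlr8 for the largest fold changes after stroke, Tlr1 and Tlr6 for their levels in NSG mice, and Tlr3 as the member that stayed level.
Tlr1, chr5:64933559-64933808, minus strand: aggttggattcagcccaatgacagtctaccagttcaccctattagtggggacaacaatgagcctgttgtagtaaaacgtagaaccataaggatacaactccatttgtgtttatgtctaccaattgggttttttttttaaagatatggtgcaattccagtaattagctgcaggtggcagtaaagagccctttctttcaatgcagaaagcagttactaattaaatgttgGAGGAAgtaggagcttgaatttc
Tlr2, chr3:83841609-83841858, minus strand: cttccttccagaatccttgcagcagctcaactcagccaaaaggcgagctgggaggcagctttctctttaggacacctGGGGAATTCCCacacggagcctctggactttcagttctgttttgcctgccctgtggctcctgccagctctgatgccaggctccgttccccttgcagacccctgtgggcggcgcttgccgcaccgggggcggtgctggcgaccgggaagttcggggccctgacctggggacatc
Tlr3, chr8:45410381-45410630, minus strand: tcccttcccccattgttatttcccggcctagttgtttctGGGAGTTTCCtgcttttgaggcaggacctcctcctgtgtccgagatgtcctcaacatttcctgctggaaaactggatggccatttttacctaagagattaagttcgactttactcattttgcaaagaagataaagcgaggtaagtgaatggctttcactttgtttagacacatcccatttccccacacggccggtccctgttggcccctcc
Tlr6, chr5:64959167-64959416, minus strand: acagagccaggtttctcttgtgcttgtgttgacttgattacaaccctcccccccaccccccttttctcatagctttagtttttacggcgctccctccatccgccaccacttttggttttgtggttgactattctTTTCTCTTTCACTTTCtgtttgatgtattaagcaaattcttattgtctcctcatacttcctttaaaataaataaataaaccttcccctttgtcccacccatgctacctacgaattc
Tlr8, chrX:167264330-167264579, minus strand: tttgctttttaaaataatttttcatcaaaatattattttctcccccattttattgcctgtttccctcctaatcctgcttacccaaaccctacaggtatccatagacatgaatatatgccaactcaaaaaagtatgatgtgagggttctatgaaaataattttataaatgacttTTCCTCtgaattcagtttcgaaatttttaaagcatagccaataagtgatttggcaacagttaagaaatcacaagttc
A PU.1 core began 23 bases upstream of the Tlr1 start and, on the opposite strand, 77 bases upstream of the Tlr8 start. Tlr9 and Tlr13 also held it, 112 and 83 bases upstream. The Tlr2 window held 2 overlapping NF-kB matches that began 173 and 172 bases upstream, and the Tlr3 window held 1 match at 211 bases. The Tlr6 window held 2 overlapping ISRE matches at 116 and 110 bases. A second listed start of Tlr1 and of Tlr6 had none of the motifs in its window. These matches describe letters in the windows, and binding was not measured.

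Total counts per sample ranged from 17789044 to 43403413. The labels carry the prefixes Imm2 (20 samples, median total 37223696) and TF (9 samples, median 23155303), treated here as cohorts. All non-stroked, Rag2-/- and NSG samples were Imm2, all WT-Tacr delayed samples were TF, the WT stroke group had 2 of each, and the WT-Tacr acute group had replicate 1 from Imm2 and replicates 2 and 3 from TF. Levels are given as CPM, read counts scaled to a common library size. Summed CPM of 10 neuronal markers was 11830 to 13440 in non-stroked WT, 8261 to 12610 in stroked WT and 8450 to 13170 in WT-Tacr acute samples. It was 6678 to 8160 in WT-Tacr delayed samples, which lay below every sample of the other groups. The part of this difference in the comparisons of the delayed group was not tested. Il2rg was measured at 0.784 to 0.979 CPM in stroked NSG against 2.11 to 3.46 CPM in stroked WT samples, while its ranges overlapped without stroke. Rag2 had 0 to 2 counts per sample in every group, so it could not check the Rag2-/- label, and Prkdc in NSG mice carries a point mutation that a count does not show. Summed choroid plexus markers ranged from 4.79 to 1596 CPM between samples. They differed widely within some groups, such as non-stroked NSG (16.8 to 1191 CPM), and little in others, such as non-stroked Rag2-/- (7.81 to 12.5 CPM).

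The first comparison asked how the receptors stood in stroked against non-stroked WT cortex. A gene was called changed at a Benjamini-Hochberg adjusted p below 0.05 in edgeR's quasi-likelihood test and a log2 fold change beyond 1 in either direction. Of the 10 members, 8 were called higher after stroke and none lower, where 7.3% of all genes tested were called. The median log2 fold change was 2.07 for the members and -0.0004 for all genes tested. In 9 members the lowest stroked sample lay above the highest non-stroked one, with Tlr3 as the exception. The share of all genes tested with such a gap was not counted in any comparison. In edgeR 6709 of the 17031 genes tested had an unadjusted p below 0.05 here, so the gap alone does not set the members apart. In bulk tissue more cells of a type and more RNA per cell cannot be told apart.

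Among the cell-surface receptors Tlr2 had the largest fold change. Its CPM was 0.911, 1.17, 1.06 and 0.687 in the 4 non-stroked and 4.80, 3.78, 8.30 and 8.71 in the 4 stroked WT samples. The groups were far apart, and the 2 TF samples of the stroked group were the higher ones. The log2 fold change of Tlr2 was 2.73 (SE 0.39, adjusted p = 4.52e-05). Tlr1, the partner of Tlr2 for triacylated lipopeptides, was counted at 0.399, 0.354, 0.557 and 0.302 CPM without and 1.67, 1.72, 2.09 and 2.78 CPM with stroke. Tlr6, the partner for diacylated lipopeptides, stood at 0.313, 0.517, 0.292 and 0.550 CPM without and 1.06, 1.03, 1.78 and 1.44 CPM with stroke. Both partners rose without overlap between groups, Tlr1 by a log2 fold change of 2.34 (SE 0.44, adjusted p = 0.000428) and Tlr6 by 1.64 (SE 0.31, adjusted p = 0.000416).

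The lipopolysaccharide arm rose as well. Tlr4 had 0.968, 0.871, 0.822 and 0.962 CPM in non-stroked and 2.17, 2.44, 3.83 and 4.89 CPM in stroked WT samples. Cd14, the surface and soluble co-receptor that loads lipopolysaccharide, had 1.54, 1.28, 1.62 and 1.29 CPM against 5.68, 5.56, 7.78 and 7.76 CPM. Every stroked sample exceeded every non-stroked one for both genes, and the non-stroked samples were tightly grouped. The log2 fold changes were 1.87 for Tlr4 (SE 0.35, adjusted p = 0.00039) and 2.22 for Cd14 (SE 0.30, adjusted p = 2.85e-05). Ly96, the secreted subunit that completes the Tlr4 receptor, did not pass the test, with a log2 fold change of 0.50 (SE 0.30, adjusted p = 0.21).

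The endosomal receptors split. Tlr7, a sensor of single-stranded RNA, had 2.82, 2.07, 2.44 and 4.21 CPM in non-stroked and 8.66, 9.06, 12.6 and 13.3 CPM in stroked WT samples. Tlr13, a sensor of bacterial ribosomal RNA, had 1.28, 1.33, 1.46 and 1.26 CPM against 5.40, 5.11, 7.87 and 9.04 CPM. Both rose with clear gaps between groups, Tlr7 by a log2 fold change of 1.92 (SE 0.29, adjusted p = 7.18e-05) and Tlr13 by 2.35 (SE 0.29, adjusted p = 1.6e-05), the smallest adjusted p of the members in this comparison. Tlr9, the sensor of unmethylated CpG DNA, had 2.02, 1.60, 1.59 and 1.70 CPM against 3.99, 3.08, 3.43 and 3.15 CPM. Its groups did not overlap either, yet the log2 fold change of 0.98 (SE 0.25, adjusted p = 0.00597) lay just under the fold threshold and it was not called. Tlr3, the double-stranded RNA sensor, had 14.6, 13, 15.9 and 14.8 CPM without and 14.0, 15.9, 17.5 and 15.2 CPM with stroke. Those ranges overlapped in part, with a log2 difference of 0.10 (95% interval -0.15 to 0.36, adjusted p = 0.586).

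Tlr8, a further receptor of RNA breakdown products, was nearly uncounted without stroke. Each of the 4 non-stroked WT samples held 1 read count, while the stroked samples held 40, 26, 34 and 67, or 1.01, 0.722, 1.48 and 2.05 CPM. The summed counts gave a depth-adjusted ratio of 46.4 (95% exact interval 17.8 to 172, counting error only). The fitted log2 fold change was 5.39 (SE 0.91, adjusted p = 0.000155), a value that depends on few control counts. Per kilobase of exon, Tlr8 still had the second-lowest level of the 10 members in stroked WT tissue, at 0.366 CPM per kb against 0.356 for Tlr6.

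**Figure D1:**
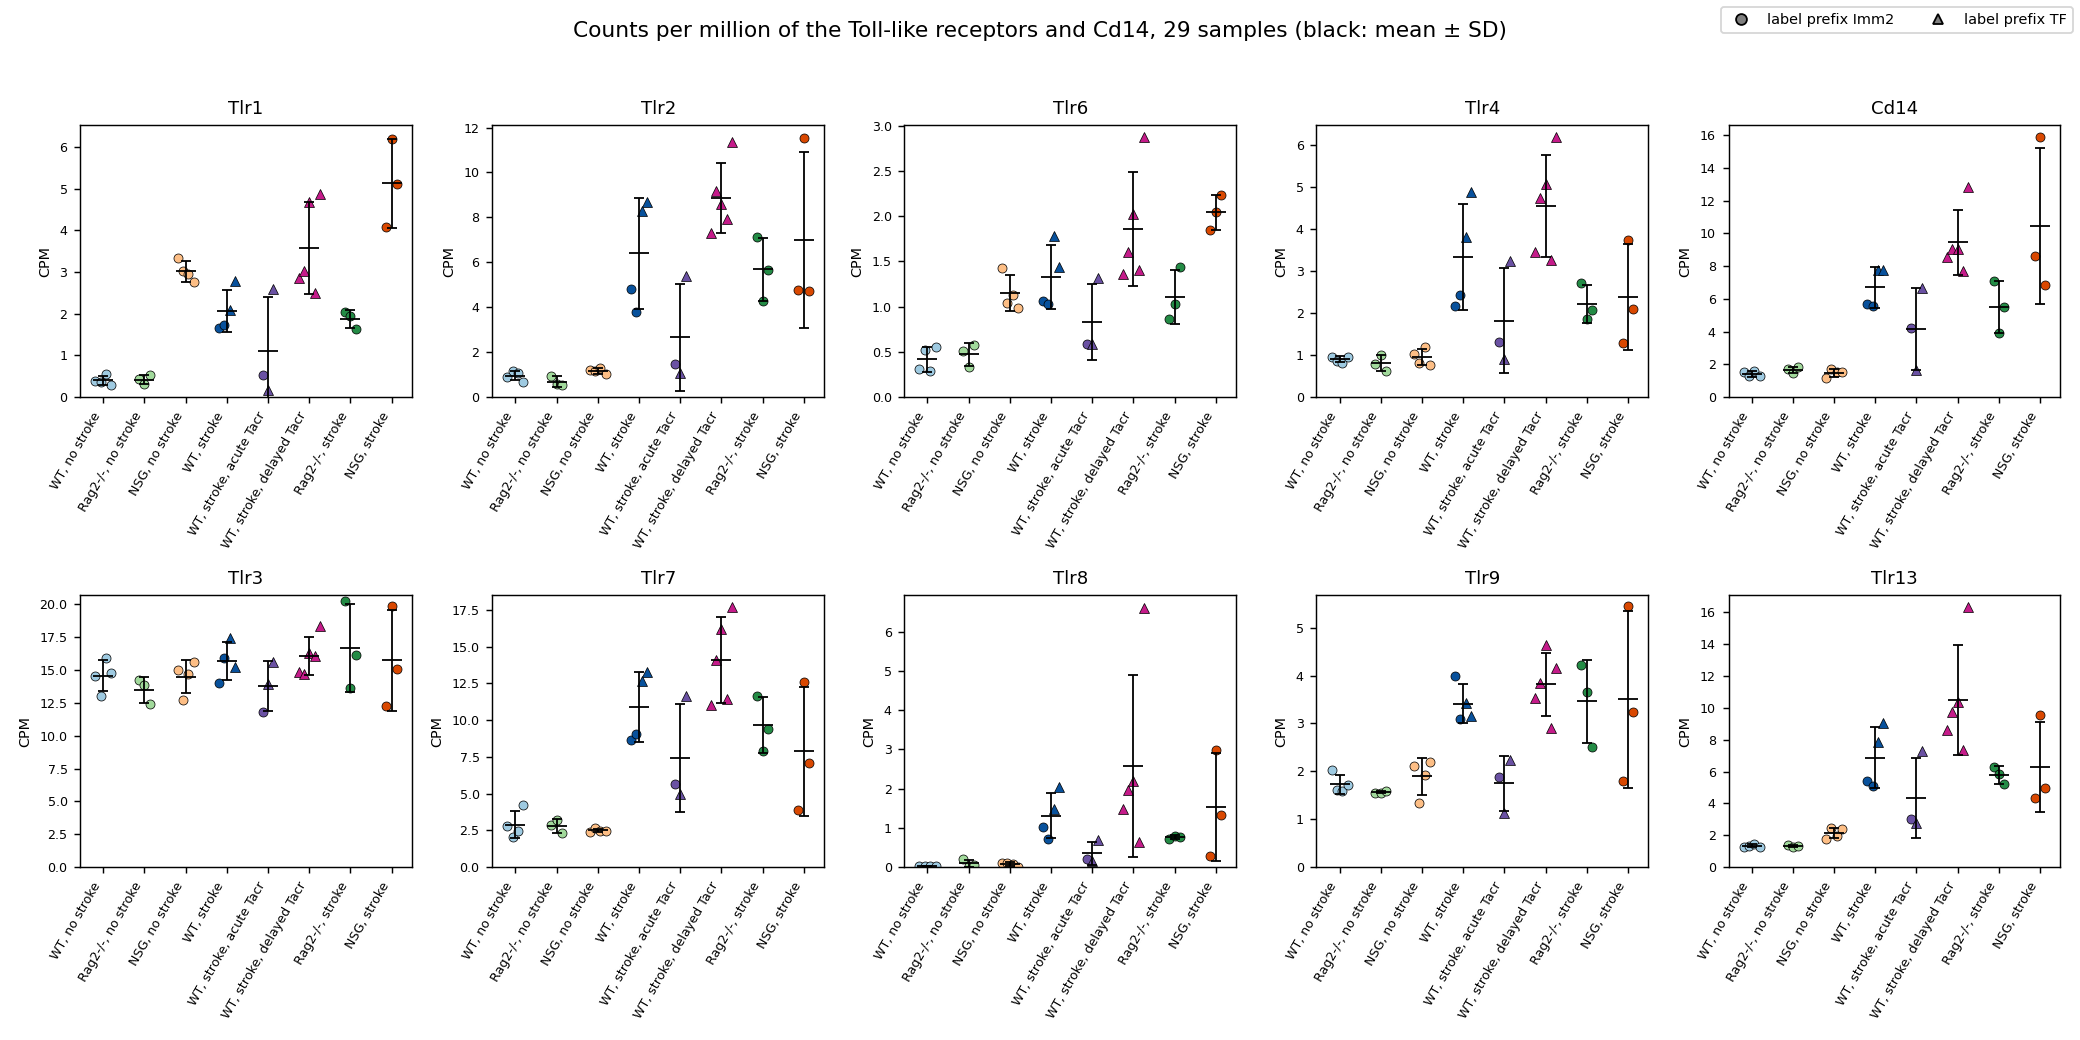
CPM of each of the 10 members (1 panel each, own linear axis from 0) in all 29 samples by group, with circles for Imm2 and triangles for TF samples and the group mean and SD in black. Tlr3 stays between 11.8 and 20.3 CPM throughout, Tlr1 is near 3 CPM in non-stroked NSG samples, and the WT-Tacr acute samples spread widely, with their replicate 3 the highest of the 3 in every panel.

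The order of the receptors by length-scaled level also shifted. In non-stroked WT tissue Tlr3 led at 2.80 CPM per kb, ahead of Cd14 at 0.826, Tlr7 at 0.706, Tlr9 at 0.498, Tlr2 at 0.318 and Tlr13 at 0.310. In stroked WT tissue Cd14 came first at 3.87 CPM per kb, followed by Tlr3 at 3.01, Tlr7 at 2.67, Tlr2 at 2.12 and Tlr13 at 1.59. The 9 members other than Tlr3 summed to 10.1 ± 0.742 CPM (SD, n = 4) without and 42.3 ± 10.3 CPM (SD, n = 4) with stroke. Tlr3, the member that stayed level, was left out of this sum, which makes the relative rise larger. All 10 members summed to 24.67 ± 1.685 CPM (SD, n = 4) without and 57.98 ± 11 CPM (SD, n = 4) with stroke. Within the Imm2 cohort alone, which leaves 2 stroked samples, 9 members were called, among 707 genes in all. There the log2 fold changes of the 8 members named as called ran from 1.32 for Tlr6 to 4.82 for Tlr8. No TF sample was non-stroked, so the comparison could not be made within TF.

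Markers of phagocytes rose in the same samples. Of 10 macrophage and monocyte markers 8 were called higher, and their summed level went from 27.8 to 34.1 CPM in non-stroked to 228 to 814 CPM in stroked WT samples, with no marker at 0. Of 10 microglia markers 4 were called higher, with sums of 291 to 337 CPM against 520 to 703 CPM. Called higher were also 4 of 5 tested neutrophil markers, 4 of 4 NK cell, 3 of 6 T cell, 4 of 5 fibroblast, 2 of 5 plasmacytoid dendritic cell and 1 of 7 astrocyte markers. Of 5 tested B cell markers 1 was higher and 1 lower, 1 of 10 neuronal markers was lower, and none of 7 endothelial, 7 oligodendrocyte or 7 choroid plexus markers was called. The part of these cell types in the members' rise was not tested.

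**Figure D2:**
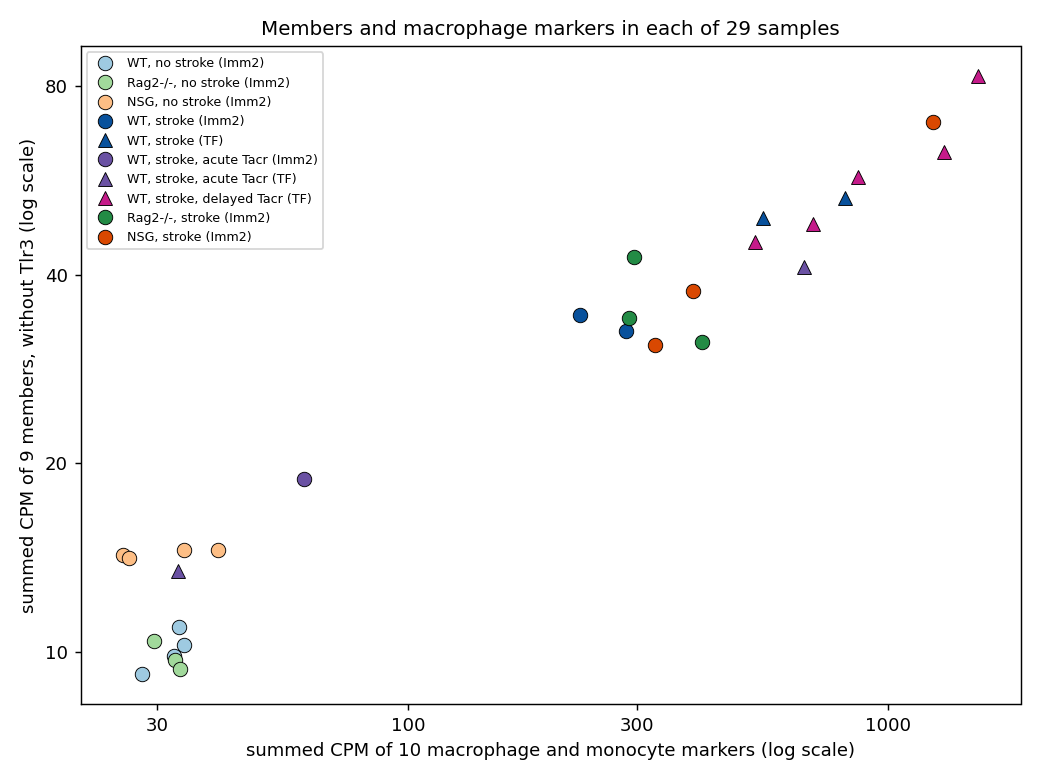
Summed CPM of 10 macrophage and monocyte markers (x axis, log scale) against summed CPM of the 9 members other than Tlr3 (y axis, log scale) in 29 samples, coloured by group. Non-stroked samples sit at 25.5 to 40.1 CPM of markers, and WT-Tacr acute replicates 1 and 2 (60.5 and 33.2 CPM of markers) lie near them, apart from the other stroked samples.

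The rest of the pathway was read from 8 lists with 120 genes, of which 113 were tested. In stroked WT tissue 53 of them were called higher and 1 lower, where 7.3% of all genes tested were called. Among co-receptors and ligand carriers 8 of 10 rose, led by the scavenger receptor Cd36 (log2 fold change 4.04, SE 0.83, adjusted p = 0.00106), the hyaluronan receptor Cd44 (2.83, SE 0.44, adjusted p = 8.69e-05) and the lipopolysaccharide-binding protein gene Lbp (2.14, SE 0.62, adjusted p = 0.0137). Of the genes that move endosomal receptors and cut them into active form, 5 of 12 rose. Unc93b1, the chaperone that carries endosomal receptors out of the endoplasmic reticulum, went from 12.6 to 36.8 CPM (log2 fold change 1.54, SE 0.24, adjusted p = 9.32e-05), and Slc15a3 (2.27), Ctss (2.09) and Ctsk (2.08) led this list. Outside the 10 members, Tlr12 was called higher (1.11, SE 0.35, adjusted p = 0.021), Tlr5 was at 0.08 (adjusted p = 0.878), and Tlr11 had too few counts to be tested.

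Among adaptors and kinases 5 of 24 rose, with a list median of 0.26. The shared adaptor Myd88 had a log2 fold change of 0.45 (SE 0.16, adjusted p = 0.0368), Tirap by 0.45 (adjusted p = 0.103) and Ticam1, the adaptor of Tlr3, by 0.45 (SE 0.11, adjusted p = 0.00483). None of these was called. Ticam2, which links Tlr4 to Ticam1, was called higher at 1.55 (SE 0.34, adjusted p = 0.0017), as were the kinases Btk (1.73) and Ikbke (1.70) and the adaptor Pik3ap1 (1.58). Of 12 transcription factors 5 rose, among them the interferon regulatory factors Irf8 (1.64) and Irf7 (1.36), and Fos, an immediate-early gene, fell by 1.44 on the log2 scale (SE 0.41, adjusted p = 0.0114).

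Of 17 tested cytokines and enzymes that the receptors can induce, 14 were called higher, with a list median of 3.23. Acod1, the enzyme that makes itaconate, reached a log2 fold change of 4.40 (SE 1.0, adjusted p = 0.00272), and the monocyte chemokine Ccl2 reached 4.25 (SE 1.02, adjusted p = 0.00361). The neutrophil chemokine Cxcl2 had no read in any non-stroked WT sample and 0, 1, 2 and 17 in the stroked ones, at least 7.41-fold higher against a floor of 3 counts over the group, and 1 sample held most of these reads. Of 21 tested negative regulators 8 rose, with a list median of 0.51, led by the inhibitory receptors Lilrb4a (6.59, SE 0.87, adjusted p = 2.12e-05) and Cd300lf and the transcription factor Atf3 (2.98, SE 0.59, adjusted p = 0.000754). Cd300lf had 4 counts over the non-stroked samples, and the depth-adjusted ratio of its summed counts was 97 (95% exact interval 37.5 to 358). Of 15 tested candidate endogenous ligands 7 rose, including osteopontin Spp1 (4.87, SE 0.70, adjusted p = 4.25e-05), decorin Dcn (2.99, SE 0.53, adjusted p = 0.000254) and the serum amyloid gene Saa3, at least 41.1-fold higher against the same floor.

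The receptors also rose in Rag2-/- mice, which lack adaptive lymphocytes. Of the 10 members 9 were called higher in stroked against non-stroked Rag2-/- tissue, where 4.33% of all genes tested were called, with a median log2 fold change of 1.75 for the members and -0.0033 for all genes. Tlr2 rose from 0.963, 0.577 and 0.540 CPM to 7.11, 4.30 and 5.64 CPM (log2 fold change 3.02, SE 0.47, adjusted p = 0.000386). Cd14 rose from 1.73, 1.46 and 1.81 CPM to 7.08, 3.94 and 5.49 CPM (1.72, SE 0.34, adjusted p = 0.00258). The groups stayed apart for every called member. The other called members had log2 fold changes of 2.89 (Tlr8), 2.14 (Tlr1), 2.13 (Tlr13), 1.78 (Tlr7), 1.45 (Tlr4), 1.22 (Tlr6) and 1.14 (Tlr9). Tlr8 had 7, 1 and 2 counts without and 25, 29 and 25 with stroke, a ratio of 7.6 (95% exact interval 3.92 to 16.5). The Rag2-/- count depended on single samples: without non-stroked replicate 1, 2 or 4 it was 5, 4 or 5, among 454, 467 or 460 genes in all. Tlr2, Tlr7, Tlr13 and Cd14 were called in each of these fits. Of the macrophage and monocyte markers 5 of 10 were called higher, with sums of 288 to 410 CPM after stroke.

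In NSG mice 6 of 10 members were called higher after stroke, where 5.48% of all genes tested were called. Tlr2 went from 1.2, 1.14, 1.30 and 1.02 CPM to 4.76, 11.5 and 4.74 CPM (log2 fold change 2.59, SE 0.40, adjusted p = 0.000133). Cd14 went from 1.14, 1.70, 1.56 and 1.55 CPM to 8.60, 15.9 and 6.85 CPM (2.81, SE 0.31, adjusted p = 1.73e-05). Stroked replicate 2 was the highest NSG sample for all 10 members except Tlr6, and also for macrophage and monocyte markers, at 1238 CPM against 327 and 391 CPM in the other two. The remaining calls were Tlr8 (4.24), Tlr7 (1.65), Tlr13 (1.56) and Tlr4 (1.33, adjusted p = 0.0115), and Tlr4 lost its call without that replicate (0.82, adjusted p = 0.114). Tlr6 at 0.83 (SE 0.29, adjusted p = 0.045) and Tlr9 at 0.89 (SE 0.26, adjusted p = 0.0185) fell short of the fold threshold. Tlr1 did not pass at 0.77 (95% interval -0.004 to 1.54, adjusted p = 0.163), although its 3 stroked samples at 4.07, 6.20 and 5.11 CPM were all above the 4 non-stroked ones.

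**Figure D3:**
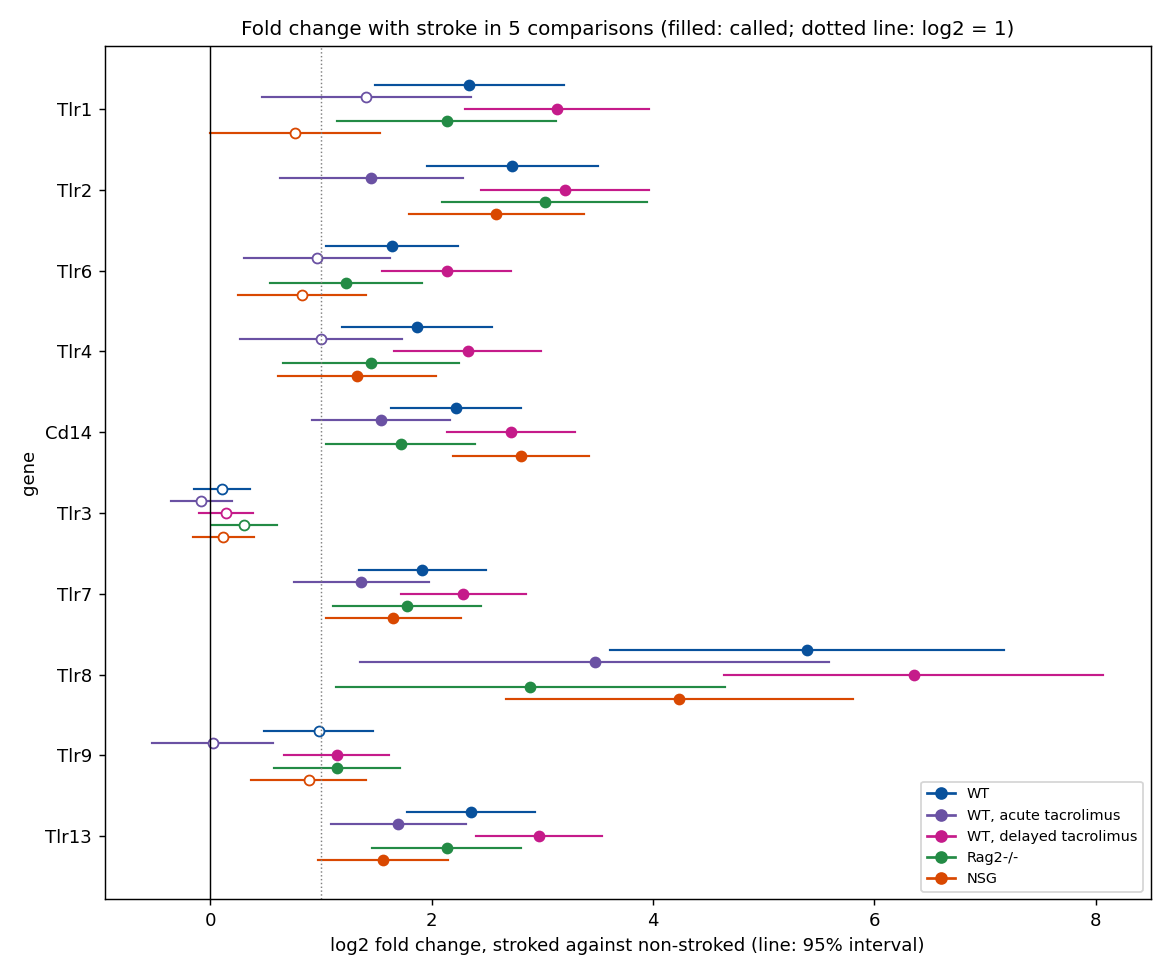
Log2 fold change of each member, stroked against non-stroked tissue, in 5 comparisons, with 95% intervals from the fit and filled points where a member was called. The dotted line marks a log2 fold change of 1. Tlr3 sits between -0.08 and 0.30, Tlr8 has the widest interval in each comparison, and WT-Tacr acute lies below WT-Tacr delayed for each member.

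Whether the stroke response itself differed between strains was tested as a difference of log2 fold changes. Against WT, none of the 10 members passed in Rag2-/- mice, where 0% of all genes tested were called, and none passed in NSG mice, where 0.0117% were. At an unadjusted p below 0.05 the edgeR counts were 0 and 1 members, and DESeq2 called 0 in both. The 1 member was Tlr1, whose response was smaller in NSG by 1.57 on the log2 scale (95% interval of the difference -2.73 to -0.42, adjusted p = 0.292). All NSG samples were Imm2, while the stroked WT group held 2 TF samples. For NSG against WT, edgeR with the cohort as a covariate counted 0 members at an unadjusted p below 0.05. Within Imm2, where 2 stroked WT samples remained, it counted 2. For Tlr2 the differences were 0.29 in Rag2-/- (95% interval -0.89 to 1.47) and -0.14 in NSG (95% interval -1.23 to 0.94), so differences of up to 1 log2 unit upward in Rag2-/- and downward in NSG lie inside these intervals. In stroked tissue compared directly, no member was called between Rag2-/- and WT, where 0.00587% of genes were called, with 0 members at an unadjusted p below 0.05 and 0 called by DESeq2.

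Tlr1 and Tlr6 stood apart in NSG mice before any stroke. Non-stroked NSG samples had 3.33, 3.02, 2.95 and 2.75 CPM of Tlr1, against 0.302 to 0.557 CPM in the 4 WT and 0.425, 0.304 and 0.540 CPM in the 3 Rag2-/- samples. Tlr6 stood at 1.43, 1.04, 1.13 and 0.990 CPM, against 0.292 to 0.550 CPM in WT and 0.510, 0.334 and 0.572 CPM in Rag2-/- samples. Neither gene overlapped between NSG and the other strains, and Tlr1 in non-stroked NSG tissue stood at the level of the highest stroked WT sample, 2.78 CPM, with replicate 4 just below it and the others above. Against WT, Tlr1 was higher by a log2 fold change of 2.89 (SE 0.43, adjusted p = 3.57e-05) and Tlr6 by 1.45 (SE 0.30, adjusted p = 0.002). Against Rag2-/-, the values were 2.83 (SE 0.49, adjusted p = 0.000273) and 1.28 (SE 0.33, adjusted p = 0.0176). These were the 2 members called of 10 in each comparison, where 3.36% and 2.8% of all genes tested were called. The Tlr6 difference from Rag2-/- lost its call without NSG replicate 1 (adjusted p = 0.0551) and without Rag2-/- replicate 1 (0.0539) or 2 (0.127).

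The partner Tlr2 was not called, with log2 differences of 0.28 from WT (95% interval -0.52 to 1.09, adjusted p = 0.753) and 0.74 from Rag2-/- (95% interval -0.17 to 1.65, adjusted p = 0.441). Its NSG samples overlapped WT and lay above the 3 Rag2-/- samples. Tlr13 had 1.78, 2.44, 1.93 and 2.38 CPM in non-stroked NSG against 1.26 to 1.46 CPM in WT samples, without overlap, but did not pass after adjustment (log2 difference 0.68, SE 0.30, adjusted p = 0.167). Summed macrophage and monocyte markers overlapped between non-stroked strains, at 25.5 to 40.1 CPM in NSG and 27.8 to 34.1 CPM in WT samples. Summed microglia markers were 350 to 392 CPM in NSG and 291 to 337 CPM in WT samples, and 1 of 10 macrophage markers was called higher and 1 of 10 microglia markers lower in NSG. Their part in the Tlr1 and Tlr6 difference was not tested. Between non-stroked Rag2-/- and WT tissue no member was called, where 0.00587% of genes were called, with 0 members at an unadjusted p below 0.05 in edgeR and 0 by DESeq2.

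Because Tlr1 and Tlr6 are neighbours, the region around them was examined after their values had been seen. Of 31 genes tested within 1000 kb on either side of the Tlr1 start, these 2 were called and no other. The other 29 had log2 differences between NSG and WT of -0.42 to 0.62 (lowest adjusted p = 0.0621), and between NSG and Rag2-/- of -0.81 to 0.55 (lowest adjusted p = 0.0813). The effects of the NOD background, the Prkdc mutation and the loss of Il2rg cannot be told apart in these samples. Nor can a sequence difference between strains that alters how reads map to Tlr1 and Tlr6 be told apart from a difference in their RNA.

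**Figure D4:**
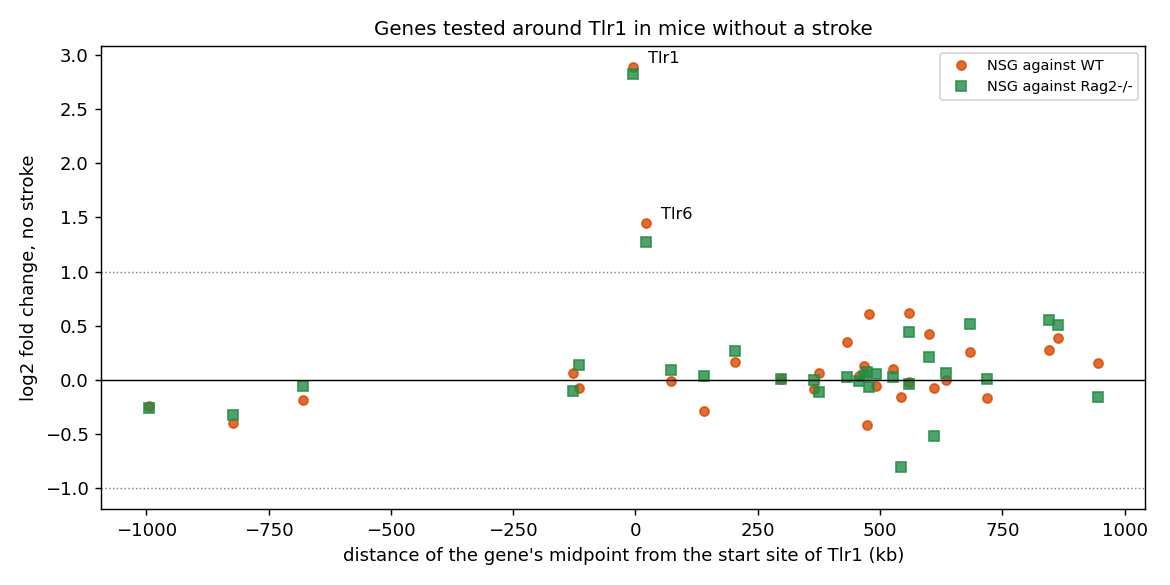
Log2 difference of 31 tested genes between non-stroked NSG and WT or Rag2-/- tissue, by distance of the gene midpoint from the Tlr1 start in kb. Tlr1 and Tlr6 lie above all other genes of the window in both comparisons, which range from -0.81 to 0.62.

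After stroke Tlr1 remained the member that differed between strains. Stroked NSG samples had 4.07, 6.20 and 5.11 CPM against 1.67, 1.72, 2.09 and 2.78 CPM in stroked WT, a log2 fold change of 1.32 (SE 0.40, adjusted p = 0.0304), and the groups were apart. It was the 1 member called of 10, where 3.26% of all genes tested were called. The call was lost without NSG replicate 2 (adjusted p = 0.0698) and without WT replicate 1, 2 or 3 (0.0552 to 0.0692), with log2 fold changes of 1.16 to 1.32. It was kept with the cohort as a covariate (1.73, adjusted p = 0.0114). Within Imm2, where 2 stroked WT samples remained, it was also kept (1.59, adjusted p = 0.000604). Tlr6 had 1.85, 2.05 and 2.23 CPM against 1.06, 1.03, 1.78 and 1.44 CPM, also without overlap, but did not pass (0.64, SE 0.29, adjusted p = 0.154). Cd14 was at a log2 difference of 0.65 (adjusted p = 0.145). Of the pathway lists the chemokine gene Ccl5, a product of T and NK cells, fell by 2.0 on the log2 scale between stroked WT and stroked NSG tissue (SE 0.59, adjusted p = 0.0262).

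Few pathway genes were called without stroke. Cd44 was higher in non-stroked NSG than in WT tissue (8.54 ± 2.60 against 2.47 ± 0.481 CPM, log2 fold change 1.79, adjusted p = 0.00816) and than in Rag2-/- tissue (1.59, adjusted p = 0.0466). The other 3 called genes were lower in NSG than in WT: Fos (-1.47, adjusted p = 0.0199), the prostaglandin synthase Ptgs2 (-1.13, adjusted p = 0.00949) and the heat shock gene Hspa1a (-1.35, adjusted p = 0.000108).

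The next comparison took stroked mice given tacrolimus from day 0. Of the 10 members 5 were called higher in WT-Tacr acute against non-stroked WT tissue, where 2.58% of all genes tested were called, with a median log2 fold change of 1.39 for the members and 0.0121 for all genes. The 3 samples were unlike each other. Tlr2 had 1.48, 1.08 and 5.41 CPM, Tlr1 had 0.536, 0.167 and 2.59 CPM, and Cd14 had 4.21, 1.67 and 6.64 CPM. Replicate 2 lay within or near the non-stroked range for these genes, and replicate 3 lay within the stroked WT range. The macrophage and monocyte marker sums were 60.5, 33.2 and 669 CPM and the microglia marker sums 347, 389 and 656 CPM in the same order. Their part in the members' spread was not tested.

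The called members were Tlr8 (log2 fold change 3.47, SE 1.08, adjusted p = 0.0463), Tlr13 (1.70, SE 0.31, adjusted p = 0.00375), Cd14 (1.54, SE 0.32, adjusted p = 0.00671), Tlr2 (1.46, SE 0.42, adjusted p = 0.035) and Tlr7 (1.36, SE 0.31, adjusted p = 0.0124). Tlr8 had 8, 4 and 18 counts, a ratio of 12 to non-stroked WT (95% exact interval 4.24 to 47). Tlr1 at 1.41, Tlr4 at 1.0 and Tlr6 at 0.96 did not pass, with adjusted p of 0.0628 to 0.0867, and Tlr9 was at 0.02 (95% interval -0.52 to 0.56). DESeq2 called 6 members, among 549 genes in all. Without acute replicate 3 edgeR called no member (23 genes in all), with 3 at an unadjusted p below 0.05. Without replicate 1 the count of members was 8, among 911 genes. It was 3 without any 1 of the non-stroked WT samples, among 211 to 317 genes. With the cohort as a covariate, and within Imm2, where replicate 1 was the only acute sample and was assumed to vary like the other groups, edgeR called 0 members, with 4 at an unadjusted p below 0.05 in each fit.

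Compared directly with stroked WT tissue, all 10 members had lower mean estimates in WT-Tacr acute samples, with a median log2 difference of -0.78 against 0.0122 for all genes, but no member was called, where 0% of all genes tested were. At an unadjusted p below 0.05 edgeR counted 8 members, DESeq2 called 0, and the smallest adjusted p was 0.311. Tlr9 had 1.87, 1.12 and 2.24 CPM against 3.08 to 3.99 CPM, without overlap (log2 difference -0.96, 95% interval -1.50 to -0.42, adjusted p = 0.311). Tlr8 was the other member whose groups did not overlap, at 0.195, 0.167 and 0.695 CPM against 0.722 to 2.05 CPM. Without acute replicate 3, 8 members were called lower than in stroked WT tissue, among 689 genes called in all. Within Imm2 and within TF 0 members were called.

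Tacrolimus from day 7 was compared in the same way. In WT-Tacr delayed against non-stroked WT tissue 9 of 10 members were called higher, where 15.5% of all genes tested were called, with a median log2 fold change of 2.52 for the members and 0.0036 for all genes. Tlr2 had 7.32, 9.17, 8.61, 7.92 and 11.4 CPM (log2 fold change 3.21, SE 0.39, adjusted p = 9.3e-07). Tlr13 had 8.61, 9.76, 10.4, 7.38 and 16.3 CPM (2.97, SE 0.29, adjusted p = 1.99e-07). Cd14 had 8.57, 9.07, 9.02, 7.70 and 12.8 CPM (2.72, SE 0.30, adjusted p = 3.91e-07). All 5 samples exceeded every non-stroked sample for each of these genes, and replicate 5 was the highest. Tlr8 had 37, 62, 53, 14 and 133 counts, a ratio of 88.7 (95% exact interval 34.3 to 328). The other called members had log2 fold changes of 3.13 (Tlr1), 2.32 (Tlr4), 2.29 (Tlr7), 2.13 (Tlr6) and 1.14 (Tlr9), and Tlr3 was at 0.14 (95% interval -0.10 to 0.38).

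All delayed samples were TF and all non-stroked samples Imm2, so in this comparison treatment, stroke and cohort cannot be told apart without the groups that span both cohorts. With the cohort as a covariate, estimated from the stroked WT and acute groups, 9 members were called, with lower log2 fold changes for most: 2.17 for Tlr2, 2.27 for Tlr13, 2.32 for Tlr1, 1.5 for Tlr4, 1.49 for Tlr6, 1.73 for Tlr7, 2.44 for Cd14 and 5.29 for Tlr8, and 1.26 for Tlr9, which was higher. In that fit stroke in untreated WT tissue gave 2.13 for Tlr2, 1.97 for Tlr13 and 1.92 for Tlr1. Macrophage and monocyte markers summed to 527 to 1536 CPM and microglia markers to 682 to 819 CPM, with 9 of 10 and 7 of 10 called higher. Against stroked WT tissue all 10 members had higher estimates, with a median log2 difference of 0.48, but none was called, where 0% of all genes tested were. At an unadjusted p below 0.05 edgeR counted 2 members, Tlr1 (0.79, 95% interval 0.08 to 1.51, adjusted p = 0.229) and Tlr13 (0.61, 95% interval 0.11 to 1.12, adjusted p = 0.2), and DESeq2 called 0. With the cohort as a covariate, and within TF, where 2 stroked WT samples remained, edgeR called 0 members and counted 0 at an unadjusted p below 0.05.

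The direct comparison of both start days gave calls where the comparisons of each tacrolimus group with stroked WT tissue gave none. In WT-Tacr delayed against WT-Tacr acute tissue 8 of 10 members were called higher, where 5.75% of all genes tested were called, with a median log2 difference of 1.22 for the members and -0.0212 for all genes. Tlr8 (2.88, SE 0.71), Tlr2 (1.75, SE 0.40), Tlr1 (1.72, SE 0.43) and Tlr4 (1.32, SE 0.36) had the largest differences, with adjusted p of 0.0103 to 0.0146. Tlr13 (1.27), Tlr6 (1.17), Cd14 (1.17) and Tlr9 (1.12) were also called. Tlr7 missed the fold threshold at 0.92 (SE 0.30, adjusted p = 0.0315), and Tlr3 was at 0.22 (95% interval -0.05 to 0.49). The groups overlapped for Tlr1, Tlr8, Tlr7 and Tlr3. For Tlr1, acute replicate 3 reached 2.59 CPM and the lowest delayed sample 2.49 CPM. No member was called without acute replicate 1 or 2, or within TF, where the log2 differences of the 8 members ran from 0.98 to 2.56 with adjusted p of 0.159 to 0.232. Without acute replicate 3 the count was 9, among 1927 genes called in all.

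Of the 113 tested pathway genes 39 were called higher in WT-Tacr delayed than in WT-Tacr acute tissue and none lower. The share over all genes tested was 5.75%. The 39 genes had log2 differences of 1.02 to 2.35 and adjusted p of 0.0102 to 0.0464. None of these calls held without acute replicate 1, without acute replicate 2, within TF or with only the compared groups in the model, where 0 genes of the whole table were called. They were the co-receptors and carriers Lbp, Cd36, Cd180, Ly86, Itgb2, Cd44 and Mrc1, the trafficking genes and proteases Unc93b1, Slc15a3, Ctsl, Ctss and Ctsk, and the adaptors and kinases Ticam2, Pik3ap1, Ikbke and Btk. They also included the transcription factors Irf5, Irf7, Irf8 and Spi1 and the negative regulators Zc3h12a, Atf3, Trem2, Tyrobp, Lilrb4a and Cd300lf. The induced genes Tnf, Il1a, Cxcl10, Ccl3, Ccl4, Icam1, Cd80 and Cd86 and the candidate ligands Tnc, Bgn, Dcn, Fn1 and Spp1 made up the rest. Cd36 had the largest difference (2.35, SE 0.75, adjusted p = 0.0293). Ticam2, the Tlr4 adaptor, stood at 0.684 ± 0.518 CPM (SD, n = 3) in acute and 2.49 ± 0.783 CPM (SD, n = 5) in delayed samples (1.86, SE 0.37, adjusted p = 0.0102).

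The adaptors and the chaperone were followed across the other stroke comparisons. Unc93b1 was called higher in Rag2-/- (log2 fold change 1.34), NSG (1.52) and WT-Tacr delayed (2.16) tissue, and in WT-Tacr acute tissue it was at 0.98 (adjusted p = 0.0241), under the fold threshold. Ticam2 was called in Rag2-/- (2.04), NSG (1.38) and WT-Tacr delayed (2.01) tissue and was at 0.15 (adjusted p = 0.828) in WT-Tacr acute tissue. Myd88, Tirap, Ticam1 and Ly96 were called in none of the 5 stroke comparisons, with log2 fold changes of up to 0.88, 0.57, 0.50 and 0.92. Of all 113 tested pathway genes, 36 were called higher and 1 lower in Rag2-/- and 43 higher in NSG tissue. In WT-Tacr acute tissue 28 were called higher, and in WT-Tacr delayed tissue 58 higher and 2 lower. The shares over all genes tested were 4.33%, 5.48%, 2.58% and 15.5% in the same order. For WT-Tacr acute only 23 genes of all tested were called without acute replicate 3, and 31 with the cohort as covariate. With only the compared groups in the model 21 were called, so the 28 acute calls cannot all have held in these fits.

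Ranked by mean CPM over the 8 groups, WT-Tacr delayed came first for Tlr2, Tlr4, Tlr7, Tlr8, Tlr9 and Tlr13, and it overlapped the next group for each of them. All WT-Tacr delayed samples were TF, so cohort and treatment cannot be told apart in this order. For Tlr8, stroked Rag2-/- samples did not overlap the next stroked group, WT-Tacr acute. NSG stroke was highest for Tlr1 at 5.13 ± 1.06 CPM, Tlr6 at 2.04 ± 0.194 CPM and Cd14 at 10.4 ± 4.78 CPM (SD, n = 3). Tlr3 had its means within 13.5 to 16.7 CPM in all 8 groups, and every neighbouring pair overlapped. For Tlr7 and Tlr13 the lowest stroked group, WT-Tacr acute, did not overlap the highest non-stroked group, whereas for Tlr2, Tlr4 and Cd14 it did.

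Likeness of pattern was measured as the root mean square difference of centred log2 CPM over the 29 samples, among 17021 other tested genes. The closest match of any member was Abca1, a cholesterol exporter, to Tlr4, at 0.18 log2 units against a median of 1.0 over all genes. The scavenger receptor Stab1 (0.23) was also near Tlr4. Tlr7 was nearest to the Fc receptor Fcgr3 (0.26), with the cytokine receptor gene Osmr also near (0.30), and Tlr13 to the leukocyte genes Cd53 (0.24) and Adgre1 (0.26) and the adhesion gene Icam1 (0.27). The phagocyte metal transporter Slc11a1 (0.32), Vim (0.33) and Emp1 (0.33) came nearest to Tlr2. Cd14 was nearest to the complement genes C1qb (0.28) and C1qa (0.29) and the cathepsin Ctsh (0.32), and Tlr9 to Cd33 (0.24), Plcg2 (0.24) and Igfbp5 (0.25).

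The remaining members had other neighbours. Tlr8 was nearest to the matrix genes Lum (0.50), Col1a2 (0.54) and Sfrp4 (0.56), Tlr1 to Mdfi (0.53), Gm20489 (0.54) and Mamdc2 (0.55), and Tlr6 to Gcnt1 (0.34), Thbs2 (0.35) and Pyroxd2 (0.37). Among the members themselves Tlr4 and Tlr7 were closest to each other, at 0.30 log2 units, and the nearest member to Tlr1 was Tlr6, at 0.72. These distances share libraries and depth and are a description of these 29 samples.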

How the data were processed

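Bulk RNA of cortical tissue was sequenced in 29 samples of 8 groups, with polyA selection and a stranded library kit. The deposited files hold raw read counts per Ensembl gene, made by the authors with 1 file per sample. The aligner, genome build and counting strand are not given in the sources used here. Gene symbols were taken from GENCODE M21 (GRCm38). Levels are CPM, counts scaled by edgeR's TMM-adjusted library size. Genes passing filterByExpr (17031 of 25746) were fitted with edgeR 4.0.16 (R 4.3.3, limma 3.58.1) in 1 quasi-likelihood model over all 8 groups, with 15 contrasts. Calls required a Benjamini-Hochberg adjusted p below 0.05 over all genes tested and a log2 fold change beyond 1. Standard errors are the log2 fold change divided by the square root of F. The 95% intervals of the fits are a normal approximation from these standard errors. Such an interval can therefore leave out 0 where the unadjusted p of the edgeR test lies above 0.05. The fit was tested on simulated data with a common spread for all genes, no cohort effect and changes only in well-counted genes. That test does not cover low genes such as Tlr8 or groups as uneven as WT-Tacr acute. The paper speaks of stroked and non-stroked littermates, but the labels give no litter for any sample, so litter was not modelled and p-values measure only the spread between these samples. Pairing of stroked with non-stroked samples, which control tissue from the opposite hemisphere could bring, was neither examined nor modelled. Intervals on counts cover counting error only. Total counts of 17789044 to 43403413 per sample set the precision of low genes such as Tlr8.

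The members and the lists were chosen with earlier results of these data known. Named without regard to their values were all members, Ly96, Unc93b1, Myd88, Tirap, Ticam1 and Ticam2. Further named were the 3 genes of each pathway list with the largest stroke change in WT among those called, the 3 genes nearest in pattern to each member called in a stroke comparison, and every pathway gene called in the other comparisons. Of the genes nearest in pattern, 2 are not reported here. Alternatives were RLE scaling, other filters, no minimum fold, DESeq2 1.42.0, a model of only the compared groups, the cohort as covariate, each cohort alone, a replicate block and leaving out each sample. The window around Tlr1 was chosen after seeing the data. Comparisons of replicates found no pair of libraries that agreed within sampling noise.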

Additional observations from a re-analysis of the deposited data

Results flagged for a closer look

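Samples standing apart were sought with Dixon's ratio in 44 sets of values, in the groups of 4 or 5 samples. Chance alone marks about 1 in 20 such sets. In 2 sets 1 sample stood apart, and in both it was WT-Tacr delayed replicate 5. Tlr8 stood there at 6.60 CPM, with the nearest of the other 4 samples at 2.19 CPM, a gap of 0.739 of the whole range. Cd14 stood at 12.8 CPM with the nearest at 9.07 CPM, a gap of 0.733 of the range. The same sample had the highest macrophage and monocyte marker sum of the series, 1536 CPM, and the highest fibroblast marker sum, 1274 CPM. Their part was not tested. Without this sample 9 members were still called in WT-Tacr delayed against non-stroked WT tissue, among 2334 genes in all.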

How the results depend on the processing

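The count of called members stayed within 1.5 times its value in 220 alternatives and moved further in 26. The 220 include comparisons where a count of 0 stayed at 0, so they do not measure the stability of the other counts alone. No fold change of a called member reversed, 667 kept their call and 93 lost it. With only the compared groups in the model, 0 members were called for WT-Tacr acute against non-stroked WT (21 genes in all, against 440) and 0 for delayed against acute (0 genes, against 979). The acute count was 0 with the cohort as covariate (31 genes) and 0 within Imm2 (35 genes), and the delayed against acute count was 0 within TF (0 genes). Counts over all genes moved by more than 1.5 times in further settings. The cohort covariate gave 722 genes instead of 2636 for delayed against non-stroked WT, 712 instead of 1244 for stroke in WT (707 within Imm2) and 423 for delayed against acute. A mean of at least 1 CPM removed Tlr8 and gave 1630 genes for delayed against non-stroked WT, 288 instead of 573 for non-stroked NSG against WT, 251 instead of 477 against Rag2-/- and 267 instead of 556 for stroked NSG against WT. The model of only the compared groups gave 549 instead of 933 for stroke in NSG and 257 for stroked NSG against WT. Without a minimum fold the stroke comparisons gave 4579 genes in WT, 1454 in acute, 9393 in delayed, 1402 in Rag2-/- (against 737) and 3726 in NSG, and the others 1662 for non-stroked NSG against WT, 1078 against Rag2-/-, 3465 for delayed against acute and 2191 for stroked NSG against WT. For the difference in response between NSG and WT, 2 genes passed, and 69 did by DESeq2. RLE scaling changed no count of members.

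Leaving out 1 sample at a time gave 8 to 9 members for stroke in WT, 0 to 8 for acute, 9 to 9 for delayed, 4 to 8 for Rag2-/- and 5 to 7 for NSG. The ranges were 2 to 2 for non-stroked NSG against WT, 1 to 2 against Rag2-/-, 0 to 1 for stroked NSG against WT, 0 to 8 for acute against stroked WT, 0 to 9 for delayed against acute, and 0 to 0 in the other comparisons. All genes called ranged from 23 to 911 for acute, 0 to 1927 for delayed against acute, 380 to 758 for Rag2-/-, 0 to 689 for acute and 0 to 227 for delayed against stroked WT, and 0 to 117 for the NSG response. Replicate numbers recur between groups, and their sharing was examined only among the non-stroked groups. Same-numbered samples there did not deviate together (r from -0.26 to 0.11), so they were taken to share only a number. With a replicate block the count for NSG fell from 2 to 1 against WT (318 genes, against 411 in the same samples without it and 573 in all samples) and from 2 to 1 against Rag2-/-, with Tlr6 at adjusted p of 0.0542 and 0.0524, and stayed at 0 for Rag2-/- against WT (7 genes instead of 1). Without that block, these samples gave 2 members in both comparisons. The cause of these changes was not tested. Depth limits Tlr8, with at most 7 counts in any non-stroked sample.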
